A study of Homo sapiens with 12 samples.

Results

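The receptors of the transforming growth factor beta (TGF-beta), activin and bone morphogenetic protein (BMP) family were followed through 2 gene knockdowns in A549 cells, an established line from a human lung adenocarcinoma. The set was 10 genes: the type I receptors TGFBR1, ACVR1, ACVR1B, BMPR1A and BMPR1B, the type II receptors TGFBR2, ACVR2A and BMPR2, and the co-receptors TGFBR3 and ENG. Members were found by gene symbol, taking every probe set annotated to one of them alone. This gave 27 probe sets for 9 of the 10 genes, out of 19775 genes with a probe set of their own, and all 27 passed the filter on low signal. For BMPR1A no probe set was named in the annotation used here, so it was not analysed.

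The array experiment held 12 samples in 4 groups of 3. In one experiment, cells transfected with an siRNA against FAM60A were set against cells transfected with a non-targeting siRNA. A second experiment set cells transfected with an siRNA against SDS3 against non-targeting controls of its own. The proteins targeted, FAM60A (now SINHCAF) and SDS3 (now SUDS3), are subunits of the SIN3-HDAC complex, which removes acetyl groups from histones. All 4 groups were A549 cells grown in serum, given siRNA at 50 nM and lysed 3 days later, so the controls carried an siRNA and the transfection reagent too. The labels name 1 FAM60A siRNA, do not identify the SDS3 siRNA, and give no separate cultures beyond wells plated in triplicate, so p-values may reflect technical spread alone.

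Ligands of this family bring together pairs of type II and type I receptors at the cell surface, both of them serine/threonine kinases. The type II receptor phosphorylates the type I receptor, which in turn phosphorylates SMAD proteins that enter the nucleus and act on target genes. TGFBR1 and ACVR1B act through SMAD2 and SMAD3, whereas ACVR1, BMPR1A and BMPR1B act mainly through the BMP SMADs. TGFBR3 (betaglycan) and ENG (endoglin) have no kinase domain and present ligand to the kinase receptors. In carcinoma cells TGF-beta is known both for arresting growth and for driving the change from an epithelial to a mesenchymal state.

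Promoters are shown for 4 receptors that moved the same way in both knockdowns, TGFBR1 and BMPR2 upward and BMPR1B and TGFBR3 downward. Each is the 250 bases before the first listed transcription start in RefSeq GRCh38.p14, on the gene's own strand, with GC boxes in capitals (GGGCGG, searched on both strands, so CCGCCC as well). TGFBR1 lies at chr9:99104863-99105112 (+, the first of 8 listed start windows), BMPR2 at chr2:202376077-202376326 (+), BMPR1B at chr4:94757705-94757954 (+, the first of 3 windows) and TGFBR3 at chr1:91886152-91886401 (-).
TGFBR1: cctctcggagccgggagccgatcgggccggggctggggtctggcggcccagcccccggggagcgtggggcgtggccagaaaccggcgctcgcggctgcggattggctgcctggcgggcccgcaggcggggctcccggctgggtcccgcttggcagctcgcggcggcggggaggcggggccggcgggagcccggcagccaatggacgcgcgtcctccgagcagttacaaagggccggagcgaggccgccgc
BMPR2: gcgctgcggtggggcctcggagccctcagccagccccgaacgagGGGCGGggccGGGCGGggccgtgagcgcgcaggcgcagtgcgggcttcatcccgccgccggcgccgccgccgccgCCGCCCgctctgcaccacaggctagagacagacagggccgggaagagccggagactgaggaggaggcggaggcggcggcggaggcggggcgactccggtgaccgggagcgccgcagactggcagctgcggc
BMPR1B: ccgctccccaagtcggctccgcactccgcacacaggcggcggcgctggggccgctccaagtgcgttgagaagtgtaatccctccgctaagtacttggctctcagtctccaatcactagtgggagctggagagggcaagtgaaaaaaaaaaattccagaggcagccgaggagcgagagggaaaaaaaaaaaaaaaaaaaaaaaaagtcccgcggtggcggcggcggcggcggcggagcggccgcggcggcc
TGFBR3: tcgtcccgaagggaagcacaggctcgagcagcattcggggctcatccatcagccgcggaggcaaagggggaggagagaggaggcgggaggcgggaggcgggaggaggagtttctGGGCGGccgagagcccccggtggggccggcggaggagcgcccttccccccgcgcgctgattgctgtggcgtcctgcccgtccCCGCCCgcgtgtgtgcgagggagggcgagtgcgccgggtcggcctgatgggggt
BMPR2 had 3 GC boxes and TGFBR3 had 2, while TGFBR1 and BMPR1B had 0 in this window. RefSeq windows matched all 10 receptor genes, and 4 of them held a GC box, against 42.3% of 27305 promoter windows of the same length. An E box (CACGTG) stood in 1 of the 10, ACVR1B, against 6.49% of all windows. The palindromic SMAD site GTCTAGAC stood in 0 of the 10 and in 0.176% of all windows. These matches are letters in a window, with no measurement of binding.

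Both siRNAs lowered their targets: SINHCAF signal was left at 15.5% of control in the FAM60A knockdown (limma adjusted p = 8.83e-08) and SUDS3 at 33.4% in the SDS3 knockdown (adjusted p = 7.23e-06). The median signal of an array was 186 to 192.6 among FAM60A arrays but 96.82 to 98.32 among SDS3 arrays, and levels were therefore never compared across experiments. Precision is limited by having 3 arrays a group. All 12 markers of A549 or epithelial cells had clear signal, from log2 9.94 to 15.26 in the FAM60A controls and from 8.59 to 15.02 in the SDS3 controls. Of these 12 markers, 2 were higher (KRT19 and KRT7) and 2 lower (EPCAM and CDH1) in the FAM60A knockdown. EPCAM fell by 1.22 there (limma adjusted p = 1.59e-06) and CDH1 by 0.49 (adjusted p = 0.00150). With SDS3 siRNA these fell by 0.58 and 1.52 (adjusted p = 0.000143 and 1.48e-05). In the SDS3 knockdown 1 of the 12 was higher and 10 lower. The 10 included the enzyme genes ALDH3A1, GPX2, AKR1B10, AKR1C1 and NQO1, so they are not epithelial markers alone. The FAM60A shares were 16.7% each way, near the 17.4% and 15.2% of all genes. The SDS3 shares were 8.33% higher and 83.3% lower, against 13.4% and 16.6%. The part of these markers in the receptor results was not tested. Linear signal was summed over the 12 markers, a sum set mostly by the brightest of them. This sum ran from 233700 to 242900 in the FAM60A controls and from 228000 to 237000 in the knockdown. In the SDS3 experiment it ran from 200900 to 209400 in controls and from 166900 to 171000 in the knockdown. Markers of endothelial, fibroblast and immune cells, 24 genes in all, lay between log2 4.87 and 8.55 in the FAM60A controls and between 4.35 and 8.43 in the SDS3 controls. CD3E and CD79A, lymphocyte genes, were among them, so a signal in that range does not by itself show that a gene is transcribed. Of the 27 receptor probe sets, 16 lay at or below the highest of these markers in FAM60A controls and 17 in SDS3 controls. That highest marker was ESAM in both, and the next in SDS3 controls was COL3A1 at 7.55. ESAM itself fell by 0.82 with SDS3 siRNA (limma adjusted p = 3.69e-05). Of 8 fibroblast markers, 12.5% fell with FAM60A siRNA (LUM), and 25% fell (LUM and TCF21) and 12.5% rose (FAP) with SDS3 siRNA. Of 5 immune markers tested, 20% fell with SDS3 siRNA (CD14) and 0% were called with FAM60A siRNA. In bulk RNA, fewer cells with a transcript and less of it per cell cannot be told apart.

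Most of the receptors changed in both knockdowns, and none changed in opposite directions. TGFBR1 and BMPR2 rose in both, while BMPR1B, TGFBR3, TGFBR2 and ACVR1B fell in both. ACVR1 fell in the SDS3 knockdown and was not called in the FAM60A knockdown, and ACVR2A and ENG were not called in either at their brightest probe set. A gene is represented by its brightest probe set, and a call is an adjusted p under 0.05 in limma, adjusted over 48286 probe sets.

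For the FAM60A knockdown, 2 of the 9 receptors rose, 4 fell and 3 did not pass; without FAM60A control replicate 1 the number that fell was 2. Over all genes 32.6% were called, 17.4% higher and 15.2% lower. For the SDS3 knockdown, 2 rose, 5 fell and 2 did not pass, where 30.0% of all genes were called, 13.4% higher and 16.6% lower. The median change of the 9 receptors was -0.09 (log2) with FAM60A siRNA against -0.02 for all genes tested. With SDS3 siRNA it was -0.29 against 0.01. Among the 27 probe sets, 9 rose and 8 fell in the FAM60A knockdown, where 26.9% of all probe sets were called, 14.8% higher and 12.1% lower. In the SDS3 knockdown 5 rose and 9 fell, with 24.2% of all probe sets called, 11.0% higher and 13.2% lower. By brightest probe set, 6 of the 9 receptors were called in the same direction in both knockdowns and 0 in opposite directions, against 15.7% and 1.89% of all genes. Calls in the same direction were made for 13 of the 27 probe sets and in opposite directions for 0, against 11.9% and 1.45% of all probe sets. Arrays of knockdown and control did not overlap for 18 of the 27 probe sets in each experiment. With FAM60A siRNA these were 9 higher and 9 lower, against 20.4% and 20.7% of all probe sets. With SDS3 siRNA they were 7 higher and 11 lower, against 19.0% and 20.4%. Taking brightest probe sets only, SDS3 arrays did not overlap for 2 higher and 6 lower of the 9 receptors, against 22.4% and 25.2% of all genes, and FAM60A arrays for 2 higher and 4 lower, against 23.7% and 24.4%.

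**Figure D1:**
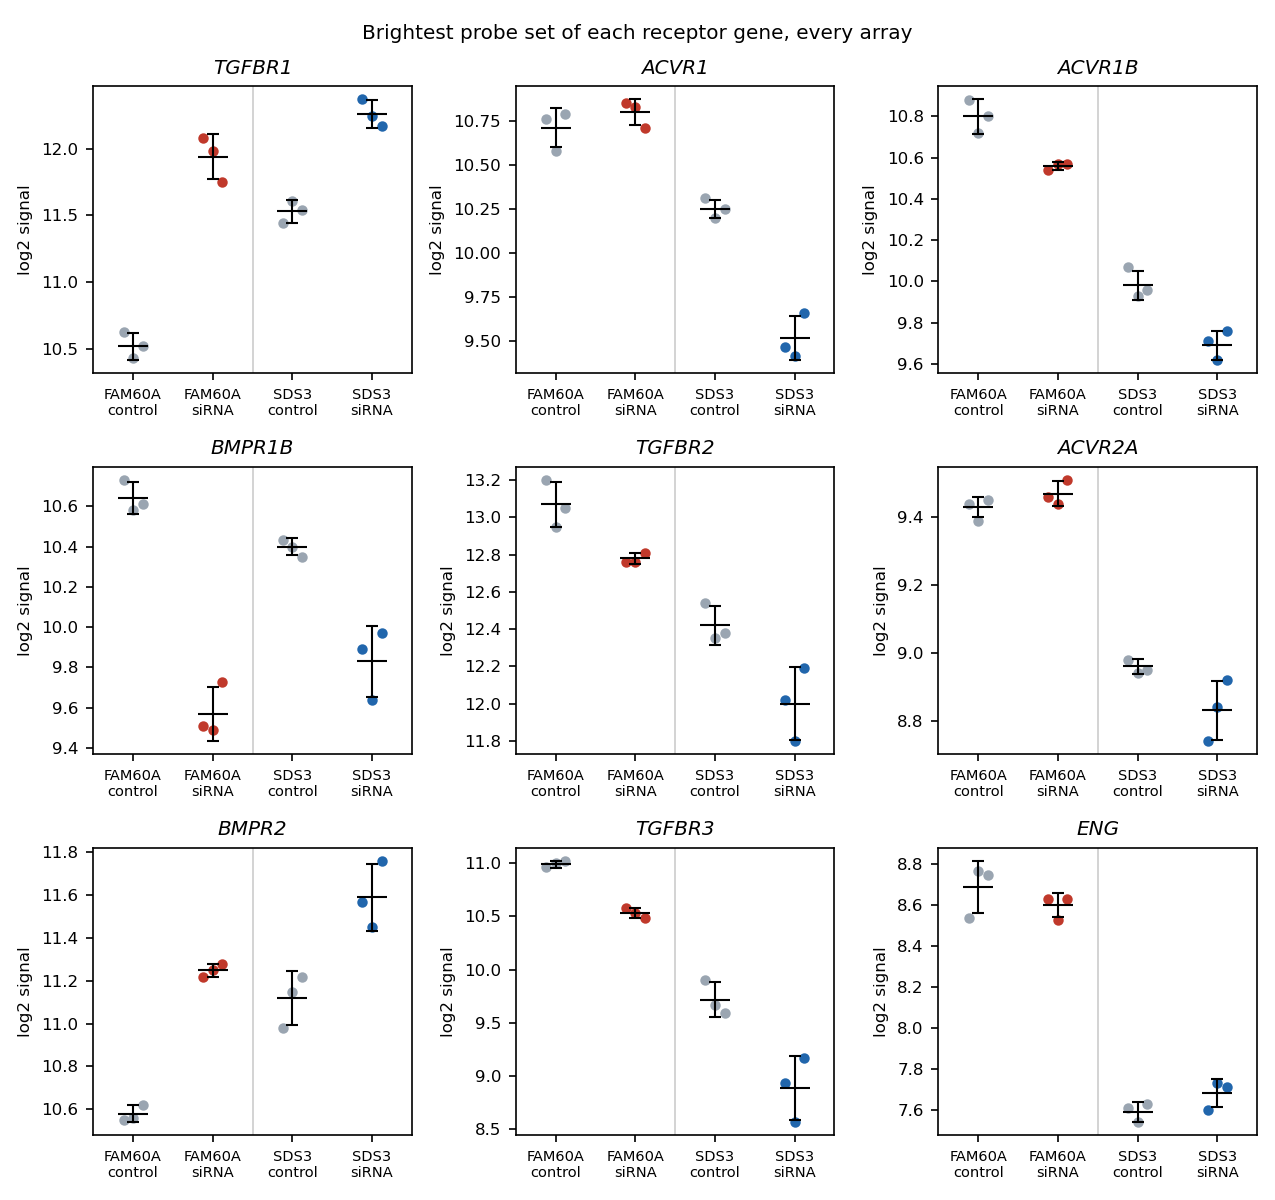
Log2 signal (vertical axis) of the brightest probe set of each of 9 receptor genes on all 12 arrays; points are arrays, long bars the group means and whiskers 1 SD (n = 3), and each panel has its own axis, which does not start at 0. Control and knockdown arrays do not overlap for TGFBR1, BMPR2, BMPR1B, TGFBR3, TGFBR2 and ACVR1B in either experiment, and overlap for ENG in both.

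TGFBR1, the type I receptor for TGF-beta, rose in both knockdowns at its brightest probe set. Its brightest probe set, 224793_s_at, read 10.63, 10.43 and 10.52 (log2 signal) on the 3 FAM60A control arrays and 12.08, 11.98 and 11.75 on the knockdown arrays. Every knockdown array was thus above every control array. The means were 10.52 ± 0.101 and 11.94 ± 0.171 (SD, n = 3). TGFBR1 signal was 2.67-fold higher, a rise of 1.41 in log2 (SE 0.0911, limma adjusted p = 3.94e-06). On the SDS3 arrays the signal was 11.44, 11.61 and 11.54 in controls and 12.37, 12.24 and 12.17 in the knockdown, again without overlap. That change was 0.73 (SE 0.0750, adjusted p = 0.000205), or 1.66-fold, and it was 0.41 when arrays were scaled to their poly-A spike-ins.

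The other TGFBR1 probe sets did not all behave alike. The probe set 236561_at rose by 1.10 with FAM60A siRNA (adjusted p = 4.87e-05), from 8.42 ± 0.130 to 9.52 ± 0.212 (SD, n = 3). With SDS3 siRNA it read 8.90, 8.82 and 8.91 in controls and 9.17, 8.88 and 8.97 in the knockdown, which overlap, and the change of 0.13 did not pass (adjusted p = 0.283, 95% interval -0.05 to 0.32). The probe set 206943_at, dimmer still, rose by 0.40 with FAM60A siRNA (adjusted p = 0.00471) and by 0.25 with SDS3 siRNA (adjusted p = 0.0247), the latter turning to -0.07 under spike-in scaling. This last SDS3 call was lost without SDS3 control replicate 1 or 2 or without SDS3 knockdown replicate 1 or 3, at adjusted p between 0.0678 and 0.0884. The brightest probe set is one of shared sequence, whose probes can match more than 1 transcript, and the other two are not.

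BMPR1B, a type I receptor for BMPs, fell the most of the 9 receptors in the FAM60A knockdown. Its brightest probe set, 229975_at, gave 10.73, 10.58 and 10.61 in FAM60A controls and 9.51, 9.49 and 9.73 in the knockdown. The groups were far apart, at 10.64 ± 0.0779 and 9.57 ± 0.135 (SD, n = 3). Signal fell by 1.06 on the log2 scale (SE 0.0791, limma adjusted p = 9.21e-06), to 47.9% of control. In SDS3 controls it gave 10.43, 10.40 and 10.35, and in SDS3 knockdown arrays 9.89, 9.64 and 9.97. It fell by 0.56 there (SE 0.0889, adjusted p = 0.00203), to 67.7% of control, again without overlap.

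Both further probe sets of BMPR1B fell as well. The probe set 210523_at fell by 0.38 with FAM60A siRNA (adjusted p = 0.000640) and by 0.71 with SDS3 siRNA (adjusted p = 0.00629). Its SDS3 knockdown arrays were spread widely, at 6.56, 6.14 and 6.77, all below the controls at 7.26, 7.13 and 7.21. The probe set 242579_at fell by 0.34 (adjusted p = 0.00456) and by 0.26 (adjusted p = 0.0228). The SDS3 call of 242579_at was lost without any one of the 3 SDS3 controls or without SDS3 knockdown replicate 1, at adjusted p between 0.0547 and 0.0760.

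ACVR1 (also called ALK2), a type I receptor used by BMPs, was read by 1 probe set, 203935_at, and was called in the SDS3 knockdown. FAM60A controls read 10.76, 10.58 and 10.79 and FAM60A knockdown arrays 10.85, 10.83 and 10.71, which overlap. The change of 0.09 did not pass (95% interval -0.08 to 0.25, limma adjusted p = 0.434). SDS3 controls read 10.31, 10.20 and 10.25, all above the knockdown arrays at 9.47, 9.42 and 9.66. ACVR1 fell by 0.73 there (SE 0.0748, adjusted p = 0.000198), from 10.25 ± 0.0517 to 9.52 ± 0.125 (SD, n = 3), to 60.1% of control.

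ACVR1B, the type I receptor for activin, fell slightly in both knockdowns at the brightest of its 6 probe sets, 213198_at. FAM60A controls stood at 10.88, 10.72 and 10.80 and the knockdown at 10.54, 10.57 and 10.57. It fell by 0.24 (SE 0.0629, limma adjusted p = 0.0186), with no overlap of arrays. SDS3 controls stood at 10.07, 9.93 and 9.96 and the knockdown at 9.71, 9.62 and 9.76, also without overlap. It fell by 0.29 there (SE 0.0656, adjusted p = 0.0121). The FAM60A call was lost without FAM60A control replicate 1 (adjusted p = 0.0804), without control replicate 3 (adjusted p = 0.0532) and without FAM60A knockdown replicate 1 (adjusted p = 0.0524). It was also lost when arrays were scaled to spike-ins (adjusted p = 0.0977) or hybridisation controls (adjusted p = 0.273). None of the other 5 probe sets was called, with changes from -0.15 to -0.03 with FAM60A siRNA and from -0.16 to 0.04 with SDS3 siRNA.

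**Figure D2:**
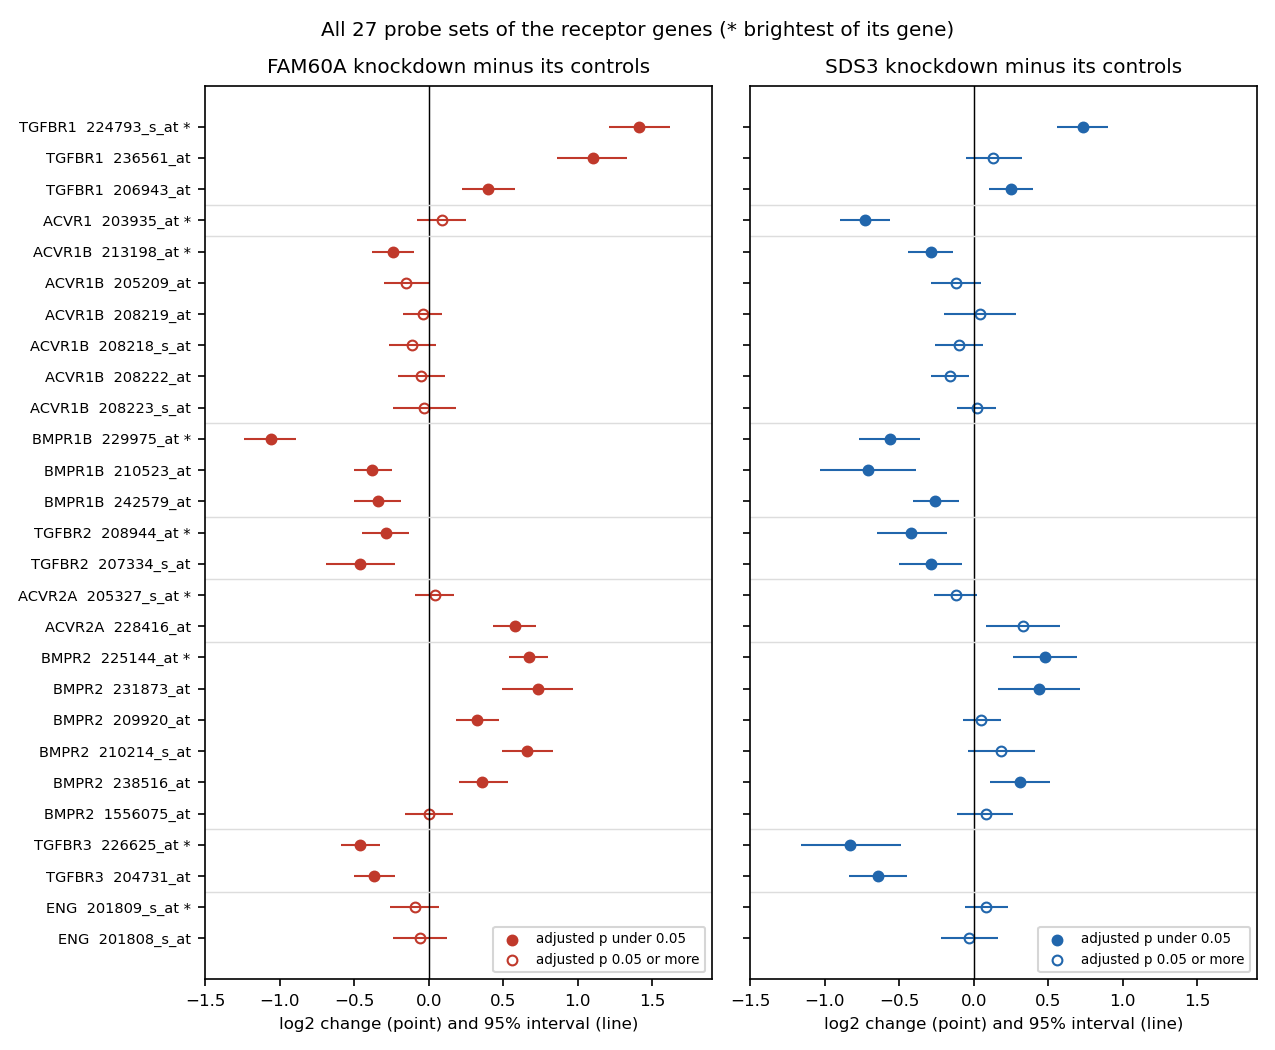
Log2 change, knockdown minus control, of all 27 probe sets of 9 receptor genes, with the FAM60A experiment on the left and the SDS3 experiment on the right; lines are 95% intervals from limma and filled points have an adjusted p under 0.05. All 3 probe sets of BMPR1B lie below 0 in both panels, while 5 of 6 probe sets of ACVR1B are open in both.

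BMPR2, the type II receptor for BMPs, rose in both knockdowns. At its brightest probe set, 225144_at, FAM60A controls were 10.55, 10.56 and 10.62 and FAM60A knockdown arrays 11.22, 11.25 and 11.28. The arrays lay close together within each group and far apart between groups. BMPR2 rose by 0.67 (SE 0.0574, limma adjusted p = 2.13e-05), or 1.59-fold, from 10.58 ± 0.0395 to 11.25 ± 0.0298 (SD, n = 3). SDS3 controls were 10.98, 11.15 and 11.22, all below the knockdown arrays at 11.57, 11.45 and 11.76. It rose by 0.48 (SE 0.0949, adjusted p = 0.00671), or 1.39-fold, a call that was lost under spike-in scaling, where the change was 0.15 (adjusted p = 0.359).

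Of the 6 BMPR2 probe sets, 5 rose in the FAM60A knockdown, by 0.32 to 0.73, and the remaining one, 1556075_at, read 0.00 (adjusted p = 0.998). In the SDS3 knockdown 3 of the 6 rose: 225144_at, 231873_at by 0.44 (adjusted p = 0.0311) and 238516_at by 0.31 (adjusted p = 0.0334). The last turned to -0.01 under spike-in scaling. The SDS3 call of 231873_at was lost without any one of the 3 SDS3 controls or without SDS3 knockdown replicate 2, at adjusted p between 0.0665 and 0.0827. That of 238516_at was lost without any SDS3 control or without SDS3 knockdown replicate 1 or 3, at adjusted p between 0.0594 and 0.114. The probe set 210214_s_at, not called with SDS3 siRNA at 0.18, passed without SDS3 knockdown replicate 1 (0.30, adjusted p = 0.0251).

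TGFBR2, the type II receptor that binds TGF-beta, fell in both knockdowns. The probe set 208944_at read 13.20, 12.95 and 13.05 in FAM60A controls and 12.76, 12.76 and 12.81 in the knockdown. No array overlapped, and it fell by 0.29 (SE 0.0714, limma adjusted p = 0.0132), to 81.9% of control. In the SDS3 experiment controls read 12.54, 12.35 and 12.38 and knockdown arrays 12.02, 11.80 and 12.19. It fell by 0.42 (SE 0.103, adjusted p = 0.0178), to 74.9%. Leaving out FAM60A control replicate 1 took the first change to -0.22 (adjusted p = 0.0535), and leaving out SDS3 control replicate 1 took the second to -0.36 (adjusted p = 0.0574). Scaling to hybridisation controls also ended the FAM60A call (adjusted p = 0.116). The second probe set, 207334_s_at, fell by 0.46 (adjusted p = 0.00794) and by 0.29 (adjusted p = 0.0498). The SDS3 call of that probe set was lost without SDS3 control replicate 2 or 3 or without any one of the 3 SDS3 knockdown arrays, at adjusted p between 0.0671 and 0.159.

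ACVR2A, a type II receptor for activins and some BMPs, gave different readings at its 2 probe sets. The brighter is one of shared sequence and the dimmer is not. The brighter, 205327_s_at, read 9.44, 9.39 and 9.45 in FAM60A controls and 9.46, 9.44 and 9.51 in the knockdown, a change of 0.04 that did not pass (95% interval -0.09 to 0.17, limma adjusted p = 0.646). With SDS3 siRNA its change was -0.12 (interval -0.27 to 0.02, adjusted p = 0.205). It passed only under spike-in scaling, at -0.45 (adjusted p = 0.0114). The dimmer, 228416_at, read 7.71, 7.68 and 7.72 in FAM60A controls and 8.18, 8.38 and 8.27 in the knockdown, and rose by 0.58 (adjusted p = 0.000136). For SDS3 it read 7.17, 7.25 and 7.25 in controls and 7.63, 7.28 and 7.74 in the knockdown. All knockdown arrays were higher, but the change of 0.33 missed the threshold (adjusted p = 0.0633). It passed without SDS3 knockdown replicate 2 (0.46, adjusted p = 0.00345), with the filter at log2 7 (adjusted p = 0.0392), with all 12 arrays in 1 fit (adjusted p = 0.0186) and with limma's trend and robust options (adjusted p = 0.0266). Under spike-in scaling it was at 0.00.

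TGFBR3, the co-receptor betaglycan, fell in both knockdowns at both of its probe sets. The probe set 226625_at read 10.96, 11.00 and 11.02 in FAM60A controls and 10.58, 10.53 and 10.49 in the knockdown. It fell by 0.46 (SE 0.0580, limma adjusted p = 0.000257), from 10.99 ± 0.0306 to 10.53 ± 0.0452 (SD, n = 3), to 72.7% of control. SDS3 controls read 9.90, 9.67 and 9.59 and knockdown arrays 8.94, 8.57 and 9.17, which were lower but more spread out. It fell by 0.83 (SE 0.146, adjusted p = 0.00358), to 56.4%. The second probe set, 204731_at, fell by 0.37 (adjusted p = 0.00153) and by 0.64 (adjusted p = 0.000749).

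ENG, the co-receptor endoglin, is best known from endothelial cells. Its brighter probe set, 201809_s_at, read 8.54, 8.77 and 8.75 in FAM60A controls and 8.63, 8.53 and 8.63 in the knockdown. The SDS3 controls read 7.61, 7.54 and 7.63 and the knockdown 7.60, 7.73 and 7.71. The groups overlapped in both experiments. The changes were -0.09 (95% interval -0.26 to 0.07, limma adjusted p = 0.421) and 0.08 (interval -0.06 to 0.23, adjusted p = 0.385). The second probe set, 201808_s_at, read -0.06 and -0.03, with adjusted p of 0.654 and 0.866. SDS3 controls averaged 7.59 and 6.65 at the brighter and second probe sets, within the 4.35 to 8.43 of markers of other cell types. The top of that range was ESAM alone, and the next marker, COL3A1, averaged 7.55. FAM60A controls averaged 8.69 and 7.50, where the highest such marker read 8.55. Signal at these levels does not by itself show that ENG is transcribed. Of the 10 endothelial markers, 0 were called in the FAM60A knockdown and 1, ESAM, was lower in the SDS3 knockdown. Over all genes 17.4% were higher and 15.2% lower with FAM60A siRNA. The SDS3 share of 10% lower stood against 16.6% of all genes.

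The responses to the 2 siRNAs were compared directly, as the SDS3 change minus the FAM60A change. This difference passed for 3 of 9 receptors, 1 higher and 2 lower, where 21.3% of all genes passed, 7.87% higher and 13.5% lower. TGFBR1 rose less with SDS3 siRNA, by a difference of -0.68 (95% interval -0.95 to -0.41, limma adjusted p = 0.00188), and its probe set 236561_at differed by -0.96 (adjusted p = 0.000442). The third TGFBR1 probe set, 206943_at, differed by -0.15 (adjusted p = 0.402). ACVR1 differed by -0.82 (interval -1.05 to -0.59, adjusted p = 0.000134), at 0.09 with FAM60A siRNA and -0.73 with SDS3 siRNA. Each siRNA was used in its own experiment, with its own signal scale. The siRNA target and the experiment cannot be told apart in any of these differences.

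BMPR1B fell less with SDS3 siRNA at its brightest probe set, with a difference of 0.50 (95% interval 0.23 to 0.77, limma adjusted p = 0.0134). That difference was 0.28 (adjusted p = 0.450) under spike-in scaling and 0.36 (adjusted p = 0.101) with hybridisation controls. At 210523_at it ran the other way, -0.33 (adjusted p = 0.180), and it passed there without SDS3 knockdown replicate 3 (-0.47, adjusted p = 0.0237). For TGFBR3 the difference was -0.37 (interval -0.73 to -0.01, adjusted p = 0.158), and without SDS3 knockdown replicate 3 it was -0.51 (adjusted p = 0.0271). It passed as well under spike-in scaling (-0.59, adjusted p = 0.0447) and hybridisation control scaling (-0.51, adjusted p = 0.0298).

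The remaining receptors did not pass this test, which does not show that they responded alike. The intervals were -0.44 to 0.05 for BMPR2, -0.41 to 0.15 for TGFBR2, -0.24 to 0.14 for ACVR1B, -0.34 to 0.01 for ACVR2A and -0.03 to 0.39 for ENG. Over the 27 probe sets the difference passed for 6, against 16.9% of all probe sets; 1 was higher, against 6.28%, and 5 lower, against 10.6%. Beyond those of TGFBR1, ACVR1 and BMPR1B, they were the BMPR2 probe sets 209920_at (-0.27, adjusted p = 0.0386) and 210214_s_at (-0.47, adjusted p = 0.0221). The first of these calls was lost without FAM60A control replicate 1 or 3, FAM60A knockdown replicate 2 or 3, SDS3 control replicate 2 or 3 or any one SDS3 knockdown array, at adjusted p between 0.0534 and 0.0979. The second was lost without FAM60A control replicate 2 (adjusted p = 0.0553) or FAM60A knockdown replicate 3 (adjusted p = 0.0581).

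**Figure D3:**
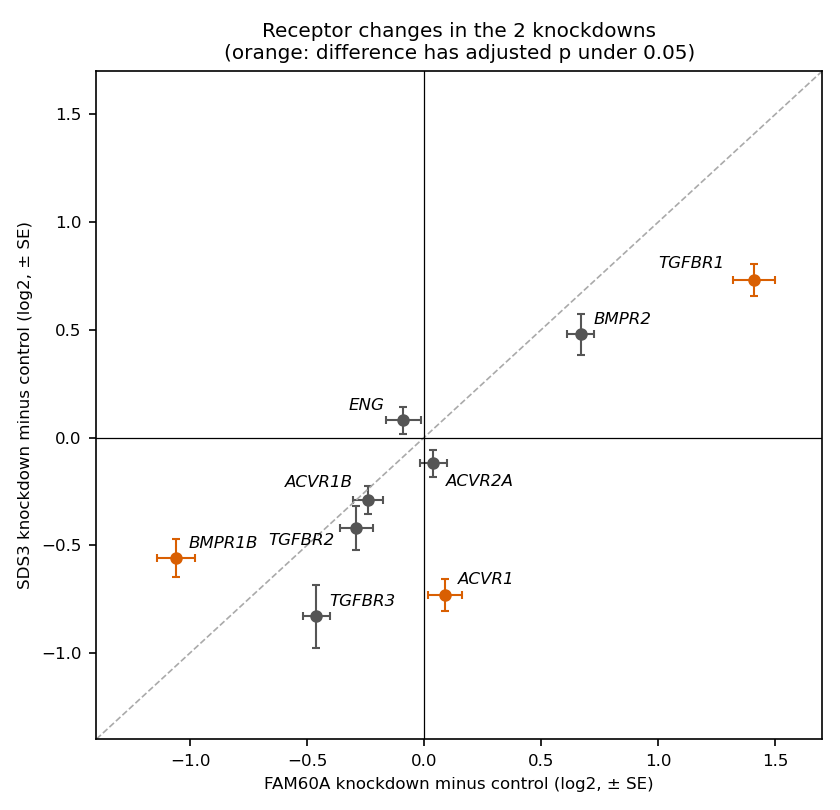
Log2 change of each receptor's brightest probe set in the FAM60A knockdown (horizontal axis) and in the SDS3 knockdown (vertical axis), with SE bars and a dashed line where both are equal. TGFBR1 and BMPR2 stand at upper right and ACVR1 on its own at a FAM60A change of 0.09 and an SDS3 change of -0.73; orange marks the 3 receptors whose difference passed.

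Scaling of the arrays bears on the size of these changes, since RMA sets arrays normalized together to a common distribution. In the SDS3 experiment poly-A spike-in signal was 0.323 (log2) higher on knockdown arrays (exact permutation p = 0.1, the smallest that 3 against 3 arrays can give), and 18S signal was 0.527 higher (exact permutation p = 0.1). In the FAM60A experiment they were 0.101 (p = 0.5) and 0.277 (p = 0.1) higher by the same exact test. Scaling to the spike-ins moved the median of all genes to -0.317 with SDS3 siRNA and -0.124 with FAM60A siRNA, from 0.006 and -0.023. The SDS3 calls over all genes then split into 454 higher and 8233 lower, in place of 2504 and 3084. The FAM60A calls became 1228 higher and 1934 lower, in place of 3239 and 2824. With hybridisation controls they were 1442 higher and 3663 lower for SDS3, and 3203 and 1517 for FAM60A. An error in scaling an array is shared by all its probe sets, which limma does not take into account. For TGFBR1 with FAM60A siRNA, limma adjusted p was 1.66e-41 with hybridisation controls, against 3.94e-06 as deposited. Calls and adjusted p-values under spike-in or hybridisation control scaling are therefore descriptions only.

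Every receptor called at its brightest probe set kept its direction under the 5 scalings run. With spike-ins and SDS3 siRNA, ACVR1 was at -1.06, BMPR1B at -0.89, TGFBR3 at -1.15, TGFBR2 at -0.74 and ACVR1B at -0.61. Relative to the shifted median of all genes these were -0.74, -0.57, -0.83, -0.42 and -0.29, TGFBR1 was at 0.73 and BMPR2 at 0.47. With FAM60A siRNA and the same scaling, TGFBR1 was 1.43, BMPR2 0.69, BMPR1B -1.04 and TGFBR3 -0.44 from the median. Spike-in scaling shifts all probe sets of an array equally, so values relative to the median repeat the unscaled result by construction. They are no separate support for it. Some receptors that were not called changed sign with spike-ins: ENG went to -0.24 for SDS3, and ACVR1 to -0.01 and ACVR2A to -0.06 for FAM60A. Others kept it: ENG went from -0.09 to -0.19 for FAM60A and ACVR2A from -0.12 to -0.45 for SDS3. Spike-in scaling also made calls with SDS3 siRNA for 3 dimmer probe sets of ACVR1B, at -0.42 to -0.48, and for 201808_s_at of ENG, at -0.35.

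**Figure D4:**
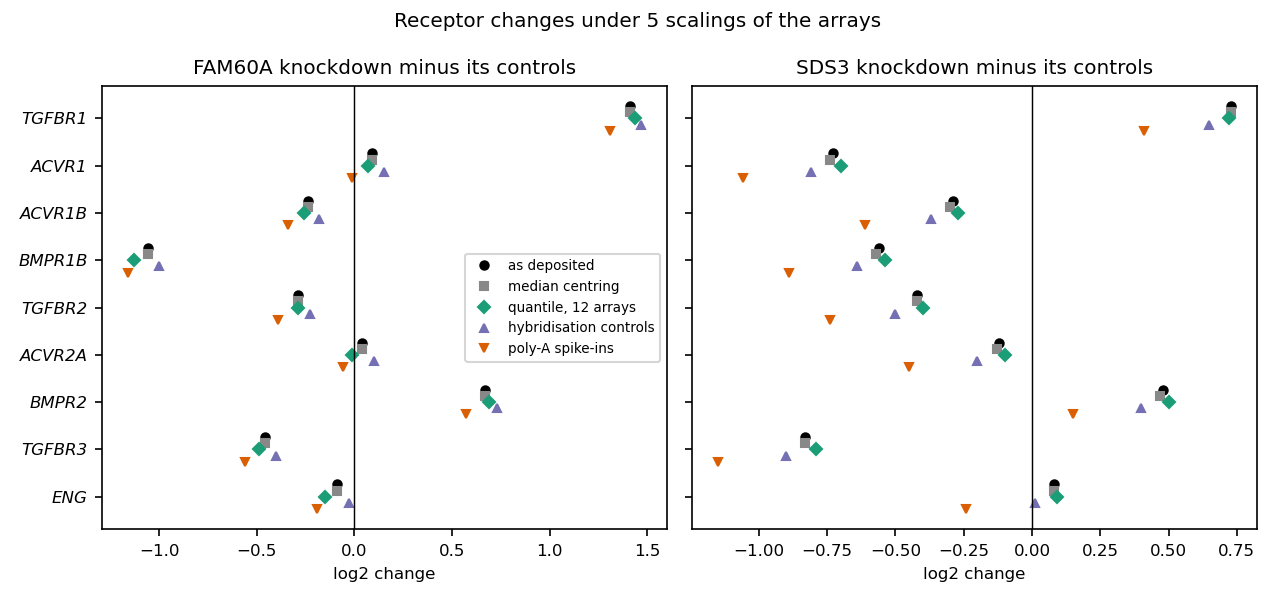
Log2 change (horizontal axis) of the brightest probe set of each receptor under 5 scalings of the arrays, with the FAM60A experiment on the left and the SDS3 experiment on the right. Spike-in scaling moves every SDS3 change to the left, TGFBR1 from 0.73 to 0.41 and TGFBR3 from -0.83 to -1.15, and no called receptor crosses 0.

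Of 15 other receptors and co-receptors of the family, 13 were tested. NRP2, a neuropilin that binds TGF-beta, rose by 0.75 in the FAM60A knockdown (limma adjusted p = 3.45e-05) and read -0.18 in the SDS3 knockdown (adjusted p = 0.106), a difference of -0.94 (adjusted p = 2.96e-05). ACVR2B, a type II activin receptor, fell by 0.46 with FAM60A siRNA (adjusted p = 0.000832) and read -0.19 with SDS3 siRNA (adjusted p = 0.0746). This rests on the brightest probe set of ACVR2B, since the other 2 read -0.09 and -0.01 with FAM60A siRNA (adjusted p = 0.450 and 0.924). BAMBI, a decoy receptor without a kinase, fell by 0.24 (adjusted p = 0.0168) and 0.57 (adjusted p = 0.000519). Its FAM60A call was lost without FAM60A control replicate 3 (adjusted p = 0.0601) or FAM60A knockdown replicate 2 (adjusted p = 0.0640) and under spike-in or hybridisation control scaling (adjusted p = 0.0880 and 0.245). Without SDS3 knockdown replicate 3, NRP2 and ACVR2B passed with SDS3 siRNA, at -0.25 (adjusted p = 0.0334) and -0.24 (adjusted p = 0.0304). The other 10 did not pass with FAM60A siRNA, nor the other 12 with SDS3 siRNA, and the median changes were 0.00 and -0.01. As shares, 7.69% rose and 15.4% fell with FAM60A siRNA, against 17.4% and 15.2% of all genes. With SDS3 siRNA 0% rose and 7.69% fell, against 13.4% and 16.6%.

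Among 24 ligands tested, 6 rose and 0 fell with FAM60A siRNA, and 4 rose and 3 fell with SDS3 siRNA. As shares these were 25% and 0% with FAM60A siRNA, against 17.4% and 15.2% of all genes, and 16.7% and 12.5% with SDS3 siRNA, against 13.4% and 16.6%, so that the SDS3 shares lay near the background. TGFB1 rose by 1.06 (limma adjusted p = 5.26e-06) and 0.65 (adjusted p = 0.000169), the latter at 0.33 (adjusted p = 0.0585) under spike-in scaling, and GDF11 by 0.80 and 0.99. The second probe set of TGFB1, 203084_at, read -0.02 and 0.06 and passed in neither. GDF11 controls averaged log2 7.82 and 7.04, within the range of the markers of other cell types. TGFB2 rose by 1.71 and 0.99 at its brightest probe set, but 2 other probe sets fell with SDS3 siRNA, 209909_s_at by 0.52 and 220407_s_at by 0.43; with FAM60A siRNA these rose by 0.84 and 0.77. GDF15, a stress-induced ligand of the family, fell by 1.41 with SDS3 siRNA (adjusted p = 7.76e-05) and read -0.01 with FAM60A siRNA.

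Secreted antagonists and latent binding proteins, which hold ligands away from the receptors, had calls in the upward direction only, by brightest probe set. With FAM60A siRNA 11 of 19 rose and 0 fell, and with SDS3 siRNA 8 rose and 0 fell, with median changes of 0.35 and 0.20. These are 57.9% and 42.1% rising, against 17.4% and 13.4% of all genes. FSTL3 and FSTL1, follistatin-like proteins, rose by 1.25 and 1.05 with FAM60A siRNA and by 0.72 and 0.99 with SDS3 siRNA. LTBP2 rose by 0.70 and 0.79. LTBP3 rose by 1.42 and by 0.31, the latter turning to -0.01 under spike-in scaling. The other 2 probe sets of LTBP3 read 0.17 and 0.07 with SDS3 siRNA and were not called.

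Among the 8 SMADs, which carry the signal from type I receptors, 3 rose and 0 fell with FAM60A siRNA, and 4 rose and 1 fell with SDS3 siRNA. The shares rising were 37.5% and 50%, against 17.4% and 13.4% of all genes, and the share falling with SDS3 siRNA was 12.5%, against 16.6%. SMAD2 rose by 0.76 (limma adjusted p = 8.17e-06) and 0.31 (adjusted p = 0.00700), and the inhibitory SMAD6 by 0.23 and 0.26; under spike-in scaling the SDS3 values were -0.01 and -0.06. Other probe sets of SMAD2 rose by more: 203075_at, 203077_s_at, 226563_at and 235598_at by 1.14, 1.40, 1.30 and 0.98 with FAM60A siRNA, and by 1.09, 1.15, 0.73 and 0.99 with SDS3 siRNA. None of the other 3 probe sets of SMAD6 was called, with readings of -0.11 to -0.07 and of 0.02 to 0.22. The SMAD6 calls were lost without FAM60A control replicate 1 (adjusted p = 0.0664), FAM60A knockdown replicate 3 (adjusted p = 0.0711) or SDS3 control replicate 2 (adjusted p = 0.0541). SMAD7, also inhibitory, rose by 0.55 and 0.46, the latter at 0.13 (adjusted p = 0.419) under spike-in scaling. SMAD3 fell by 0.30 with SDS3 siRNA (adjusted p = 0.0120) and read 0.12 with FAM60A siRNA (adjusted p = 0.166), a difference of -0.42 (adjusted p = 0.00403). At 2 other probe sets, 205397_x_at and 205398_s_at, SMAD3 rose with FAM60A siRNA by 0.35 (adjusted p = 0.00183) and 0.24 (adjusted p = 0.0307). The same probe sets fell with SDS3 siRNA by 0.53 (adjusted p = 0.000472) and 0.48 (adjusted p = 0.00131), while 205396_at passed in neither. Without SDS3 knockdown replicate 1 the SDS3 change at the brightest SMAD3 probe set was -0.26 (adjusted p = 0.0505).

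Genes of receptor turnover and receptor adaptors numbered 30 tested, of which 10 rose and 6 fell with FAM60A siRNA and 6 rose and 3 fell with SDS3 siRNA. These shares were 33.3% and 20%, against 17.4% and 15.2% of all genes, and then 20% and 10%, against 13.4% and 16.6%. SMURF2, a ubiquitin ligase that marks TGF-beta receptors for removal, rose at its brightest probe set by 1.21 with SDS3 siRNA (limma adjusted p = 4.28e-06) and read 0.18 with FAM60A siRNA (adjusted p = 0.0544), a difference of 1.03 (adjusted p = 1.55e-06). That FAM60A value passed without FAM60A knockdown replicate 3 (0.22, adjusted p = 0.0483) and under 5 other settings, at adjusted p between 0.0207 and 0.0439. At 227489_at and 232020_at SMURF2 rose with FAM60A siRNA too, by 0.83 (adjusted p = 2.85e-05) and 0.93 (adjusted p = 1.34e-05), and by 1.74 and 2.02 with SDS3 siRNA. The remaining probe set, 230820_at, read 0.04 (adjusted p = 0.883) and rose by 1.03. The difference between the knockdowns passed at each of these 3, at 0.91, 1.09 and 0.98 (adjusted p = 0.000108, 0.00119 and 0.00690). PMEPA1 rose by 1.21 and 0.27, the latter at -0.05 under spike-in scaling. UCHL5, a deubiquitinase, fell by 0.56 and 0.32. The adaptors SHC1, by 0.49 and 0.71, and ZFYVE9, which presents SMADs to the receptor, by 0.42 and 0.46, rose in both. Under spike-in scaling ZFYVE9 was at 0.32 and 0.13 (limma adjusted p = 0.119 and 0.418). Its other probe set, 208446_s_at, read 0.14 and 0.04 and was not called.

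The list of nuclear co-repressors and partners had 7 tested genes, with 1 rising and 1 falling for FAM60A and 4 rising and 1 falling for SDS3. The shares were 14.3% each way for FAM60A, near the 17.4% and 15.2% of all genes, and 57.1% and 14.3% for SDS3, against 13.4% and 16.6%. ZEB2 rose by 0.97 and SKIL by 0.51 with SDS3 siRNA, and neither passed with FAM60A siRNA (0.24 and 0.09) at its brightest probe set. At 228333_at ZEB2 rose by 0.56 with FAM60A siRNA (limma adjusted p = 0.00158) and by 0.53 with SDS3 siRNA. Of 5 ZEB2 probe sets, 1 rose with FAM60A siRNA and 2 with SDS3 siRNA, and the rest were not called. ZEB2 signal was low at its brightest probe set and at 228333_at. These read log2 5.55 and 5.04 in SDS3 controls and 6.79 and 6.44 in FAM60A controls. That is within the range of the markers of other cell types, so transcription of ZEB2 is not shown by its level. At 206675_s_at SKIL rose by 0.64 (adjusted p = 0.000158) and 0.73. Under spike-in scaling SKIL was at 0.19 (adjusted p = 0.263). TGIF1 rose by 0.22 and 0.31, with -0.02 for SDS3 under spike-in scaling. Its probe set 1566901_at read 0.33 with FAM60A siRNA, not called, and rose by 0.30 with SDS3 siRNA. The probe set 244858_at read 0.07 and -0.01 and was not called. The FAM60A call of TGIF1 was lost without FAM60A control replicate 2 or 3 or FAM60A knockdown replicate 1 or 2, at adjusted p between 0.0572 and 0.0821. WWP1, a ubiquitin ligase in this list, fell by 0.45 and 0.49.

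The known immediate targets of the pathways were counted last. These lists share genes with those above, so some calls are counted again. PMEPA1 and LTBP2 are also among the TGF-beta and activin targets, and SMAD7 and BAMBI among the BMP targets. Of 15 TGF-beta and activin targets, 8 rose and 2 fell with FAM60A siRNA, and 10 rose and 0 fell with SDS3 siRNA, with median changes of 0.24 and 0.46. The shares rising were 53.3% and 66.7%, against 17.4% and 13.4% of all genes. Those falling were 13.3% and 0%, against 15.2% and 16.6%. IL11, a cytokine, rose by 1.75 (limma adjusted p = 3.64e-06) and 0.86 (adjusted p = 0.000867). JUNB rose by 0.73 with FAM60A siRNA and read 0.18 with SDS3 siRNA. CCN2, a matricellular protein, fell by 0.55 with FAM60A siRNA and rose by 0.87 with SDS3 siRNA, a difference of 1.42 (adjusted p = 1.17e-06). Of 15 BMP targets, 3 rose and 7 fell with FAM60A siRNA, and 3 rose and 8 fell with SDS3 siRNA, with medians of -0.07 and -0.22. The shares falling were 46.7% and 53.3%, against 15.2% and 16.6% of all genes. The share rising was 20% in each knockdown, against 17.4% and 13.4%. ID2, an inhibitor of helix-loop-helix factors, fell by 0.45 and 0.81, and HEY1, a transcriptional repressor, by 0.44 and 0.78. HEY1 controls averaged log2 8.34 and 7.42, within the range of the markers of other cell types.

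**Figure D5:**
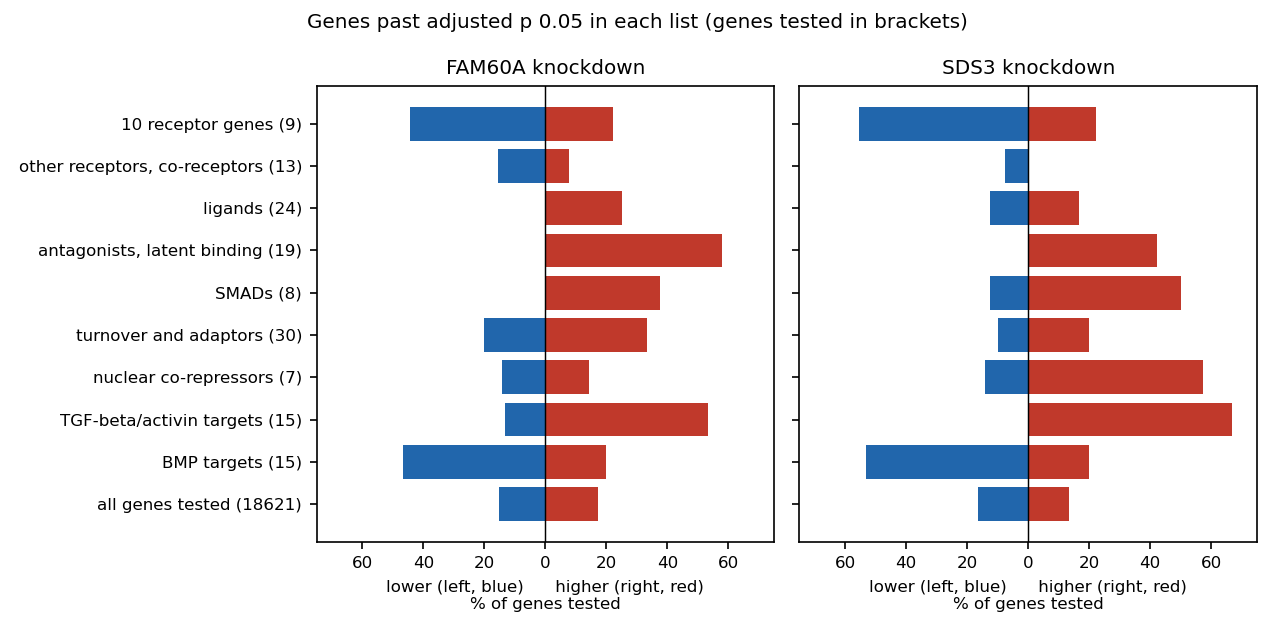
Share of the genes tested in each list that passed an adjusted p of 0.05, lower to the left and higher to the right, in each knockdown, with the number tested in brackets. Antagonists and latent binding proteins have 11 of 19 and 8 of 19 higher and 0 lower, while BMP targets have 7 of 15 and 8 of 15 lower; the lowest bars are all 18621 genes tested.

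For the receptors with a change of at least 2-fold, the 3 genes with the most similar arrays were found by Euclidean distance over the 12 arrays, each value taken from its own experiment's control mean. For TGFBR1 they were MATN2 (distance 0.328), DOCK10 (0.385) and TCFL5 (0.413). MATN2, a matrix protein, had log2 changes of 1.38 and 0.68 in the FAM60A and SDS3 knockdowns, beside 1.41 and 0.73 for TGFBR1. For BMPR1B they were RNF43 (distance 0.396), UNKL (0.414) and TNPO3 (0.423). RNF43, a ubiquitin ligase for Wnt receptors, had changes of -1.08 and -0.46, beside -1.06 and -0.56 for BMPR1B. These genes were picked for their likeness, so no test applies to it.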

How the data were processed

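Biotin-labelled RNA of 12 A549 samples (1 ug each, per the labels' protocols) was hybridised to a 1-colour Affymetrix array of 54675 probe sets. The deposited values are linear intensity processed by RMA, per the submitters' processing notes, which do not say here which arrays were normalized jointly. The log2 of these values was taken. Array medians were 186 to 192.6 for FAM60A and 96.82 to 98.32 for SDS3, so the 12 arrays do not share 1 common distribution. Because RMA equalises the distributions of arrays, it hides any shift common to most transcripts.

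Groups came from sample titles. Of the probe sets, 41097 had 1 gene symbol in the platform annotation, 1801 several and 11777 none, and RefSeq's gene table (GRCh38.p14) gave current symbols for 41037 by Entrez identifier. A gene was its brightest probe set over 12 arrays. The 48286 probe sets reaching log2 5 on 3 or more of the 12 arrays were tested, leaving out 62 array controls. Each knockdown was fitted with its own controls (6 arrays) and the difference between knockdowns in 1 fit of 12, with limma 3.58.1 (lmFit, eBayes) in R 4.3.3, with files read by the package data.table (version 1.17.8). Adjusted p-values are Benjamini-Hochberg over all probe sets, threshold 0.05, and intervals are 95%. The fit was tested on simulated data. Quality values used two-sided exact permutation tests.

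The members, the pathway and marker lists and the tests were chosen with earlier results of these data known, so their counts are descriptions. Named genes were all member probe sets, both siRNA targets, up to 3 genes per list and knockdown with the largest passing change and non-overlapping arrays, and the 3 genes most like each receptor that passed with at least 2-fold. Another 12 settings were tried (filters, probe set choice, scalings, fit, variance model, replicate block, arrays left out, threshold), and 1 more, scaling to hybridisation controls, was chosen after seeing the data. Within each group arrays correlated at 0.997 to 0.998, and none were duplicates.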

Additional observations from a re-analysis of the deposited data

Results flagged for a closer look

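The SDS3 response differed from the FAM60A response, by limma's test of the difference itself, for 3 receptors. The SDS3 change minus the FAM60A change (log2) was -0.68 for TGFBR1, which rose by 1.41 with FAM60A siRNA and 0.73 with SDS3 siRNA. It was -0.82 for ACVR1, at 0.09 and -0.73. It was 0.50 for BMPR1B, which fell by 1.06 and 0.56. Each siRNA had its own experiment and signal scale, so target and experiment cannot be told apart in these differences. The knockdowns also differed in how much target transcript was left, 15.5% of SINHCAF and 33.4% of SUDS3, and the part of this in the differences was not tested. Groups of 3 arrays were too small to look for single outlying arrays.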

How the results depend on the processing

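Over the 27 probe sets and all alternatives, 12 of 439 FAM60A results, 49 of 439 SDS3 results and 25 of 574 differences changed their side of the threshold or their direction, the rest keeping both. The FAM60A count of falling receptors went from 4 to 2 with hybridisation control scaling and at an adjusted p of 0.01, and ranged from 2 to 4 when single arrays were left out, 2 being without FAM60A control replicate 1. Without probe sets of shared sequence the FAM60A count of rising receptors went from 2 to 3, with ACVR2A then read at 228416_at. The SDS3 count of rising receptors went from 2 to 1 without probe sets of shared sequence and with spike-in scaling. That of falling receptors went from 5 to 3 at an adjusted p of 0.01. The count of receptors with a higher SDS3 response went from 1 to 0 with spike-in scaling, hybridisation control scaling and an adjusted p of 0.01. Spike-in scaling reversed SDS3 changes of TGFBR1 206943_at (-0.07), BMPR2 238516_at (-0.01), LTBP3 (-0.01), SMAD2 (-0.01), SMAD6 (-0.06), PMEPA1 (-0.05) and TGIF1 (-0.02). The cause was not tested. Same-numbered samples did not deviate together (correlations from -0.138 to 0.0185). With the replicate number as a block, the receptor counts stayed at 2 higher and 4 lower for FAM60A, 2 and 5 for SDS3, and 1 and 2 for the difference, while calls over all probe sets went from 12979 to 11060, 11678 to 10284 and 8145 to 6309. The number of arrays and signals near those of genes of other cell types limit the dimmer probe sets.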
